A study of Mus musculus with 46 samples.

Results

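The genes described here stood at or near 0 in fibroblasts and stayed low until D5 of reprogramming with Oct4 and NanogBiD. At D12 they had at least 70% of the embryonic stem cell level on a log2 scale. They were chosen on the values themselves, and 81 of the 37108 genes in the expression table met the rule. A gene had to have at least 5 FPKM (fragments scaled by gene length and by the fragments mapped in the library) in mouse embryonic stem cells (mES) and under 1 FPKM in both samples of mouse embryonic fibroblasts (MEF), which left 493 candidates. Its level, taken as log2(FPKM + 1) and averaged over the NanogBiD libraries of a day, was then expressed as a percentage of the mES level, called the mES share below. The share had to be under 10% at D5, which 200 candidates met, and at least 70% at D12. A share is a ratio of log2 values, not of FPKM. Cdh1, for example, had a share of 71.4% at D12 of NanogBiD with 49.8 and 33.3 FPKM, against 185 in mES. The rule would have kept the 100 genes with the largest gain in share from D7 to D10, but only 81 were left, so this gain ranked them and removed none. The NanogBiD values of D5, D7, D10 and D12 and the values of mES and MEF are therefore given as a description and were not tested.

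The cells were MEF from OG2 mice, infected with retroviruses that carried Oct4 (gene Pou5f1) together with either native Nanog (NanogWT) or NanogBiD, labelled NanogN70 by the submitters. NanogBiD is Nanog joined to the first 70 residues of SS18. SS18 belongs to the chromatin remodeller BAF, and this piece of it contacts BRG1, the ATPase of BAF. Both combinations thus shared exogenous Oct4, the fibroblast source and the media, which were iCD3 at first and N2B27 with 2i and LIF after about day 7. Libraries were made at 8 time points from D0 to D12 (D1, D3, D5, D7, D8 and D10 between them), with 2 per combination and day except for 1 of NanogBiD at D8, which gave 31. The references were 2 MEF libraries and 1 library of OG2 mES grown in 2i and LIF, and 12 libraries came from induced pluripotent stem cells (iPSC), 6 per combination. The labels divide the iPSC of each combination into iPSC1 (passages 5 to 6) and iPSC2 (passage 2), called lines below for short. The labels do not say what the 2 names stand for, and they cannot be told apart from passage. Nothing in the labels says that replicates came from separate cultures, so p-values measure only the spread between these samples.

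Embryonic stem cells in 2i and LIF are held in the naive state, in which a network around Oct4, Sox2, Nanog, Esrrb and the Klf factors keeps the genome open to all embryonic lineages. Fibroblasts lack this network, and in reprogramming they lose fibroblast genes and gain epithelial ones before the naive network sustains itself without the introduced factors. Genes such as Dppa3, Dppa5a and Zfp42 are classical readouts of that last phase, and many genes of this phase are otherwise used by oocytes and germ cells and are silenced by DNA methylation in somatic cells.

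Of the 81 entries, 73 were protein-coding and 6 were long noncoding RNAs in RefSeq, and 80 could be placed on the mm10 assembly. The name of the set, late pluripotency genes, fitted some members better than others. Only 28 were in any of the lists used here for pluripotency, signalling, germline, early-embryo, epithelial or stem cell lncRNA genes, and only 3 of 26 naive transcription factors were members. The other 53 were in none of these lists. Some entries were the same gene under different names. Gm13051 and Zfp987, Gm13247 and Zfp981, and Gm13242 and Zfp980 had the same or nearly the same values in every library, while Gm13152 and Zfp982, and Gm6792 and Epp13, shared a RefSeq gene but differed in value. The 81 entries stood for 76 distinct genes.

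The limits of the rule passed close to several genes. Just inside the D5 limit were Ism2 with a share of 9.97%, Tdh with 9.25% and Fzd9 with 8.62%, and just outside were Acsbg3 with 10.03%, Gm13154 with 10.3% and Zfp985 with 10.4%. At the D12 limit, AU018091 (70.4%), Capsl (70.9%) and Gm33470 (71.1%) were inside, and LOC108168100 (69.7%), Gm17768 (69.7%) and Tex19.1 (69.5%) were outside. Among genes that met all other limits, those nearest the mES limit were Aim2 at 5.09 FPKM, Platr11 at 5.34 FPKM and Slc17a9 at 5.36 FPKM inside, and Fthl17c at 4.99 FPKM, Gm10324 at 4.99 FPKM and Large2 at 4.93 FPKM outside. The higher of the MEF values was 0.758 FPKM for Fzd9, 0.585 FPKM for Susd2 and 0.565 FPKM for Folr1 inside, and 1.01 FPKM for Deptor, 1.09 FPKM for Ppp1r1a and 1.97 FPKM for Spire2 outside.

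Depth differed between libraries in a way that followed combination and day. Relative to the other libraries, which lay between 0.810 and 1.10, the NanogWT libraries of D8, D10 and D12 had 1.85 to 3.18 times the depth. Depth and day therefore cannot be told apart in NanogWT. The summed level of 25 fibroblast markers was 12508 to 13599 FPKM in MEF, 1190 to 1637 FPKM in NanogBiD at D12, 6334 to 6923 FPKM in NanogWT at D12 and 258 FPKM in mES. In such bulk samples, fewer cells of a type and less RNA per cell cannot be told apart. The level of every gene below is that of a mixture, and the part of the remaining fibroblasts in it was not tested.

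Promoter sequences were compared because the genes share a time course. RefSeq promoters of mm10, from 250 bases before to 50 bases after the annotated start, were matched for 53 of the 75 RefSeq genes. The motif TTTGCAT, the core of the octamer that Oct4 binds, stood on either strand in 6 of these 53 promoters (11.3%), against 4.59% of 27025 genes in the promoter table. The others were searched in the same way and can share bases with it. CATTGT, a Sox motif, stood in 1 promoter (1.89% against 12.8%), AAGGTCA, bound by Esrrb and related nuclear receptors, in 2 (3.77% against 4.66%), CACGTG, the E-box bound by Myc, in 4 (7.55% against 7.24%) and GCGGGAA, an E2F motif, in 3 (5.66% against 4.66%). The median ratio of observed to expected CpG was 0.441 (range 0 to 1.32) against 0.389 over all promoters, and the median G+C content 54.7% against 52.7%. A match is only a description of the letters in this window.

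The 6 genes with the octamer core were Zfp42, Dtx1, Mageb16, Lrrc31, Pnma5 and Gm33470. The 3 that passed the NanogWT test at D12 against D0 are shown with the core or its reverse complement in capitals, 5′ to 3′ on the strand of the gene.
Zfp42: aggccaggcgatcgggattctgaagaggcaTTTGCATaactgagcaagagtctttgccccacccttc
Dtx1: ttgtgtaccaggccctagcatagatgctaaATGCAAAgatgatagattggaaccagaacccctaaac
Mageb16: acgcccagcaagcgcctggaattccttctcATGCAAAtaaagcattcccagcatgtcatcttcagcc
These stretches lie at chr8:43307158-43307224 for Zfp42, chr5:120711795-120711861 for Dtx1 and chrX:79671585-79671651 for Mageb16, all on the minus strand. The core begins at position -185, -162 and -186, counted from the annotated start used, 1 per gene. The Dtx1 stretch lies within the annotated span of the gene (chr5:120680203-120711867), so the start used there is not the outermost.

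A second set of promoters stood out because 7 of the genes lie together on chromosome 4 (chr4:145670697-147702631). They are the zinc finger genes Zfp980, Zfp987, Zfp600, Zfp981, Rex2, Zfp982 and Zfp534, which occupy 11 of the 81 entries. A run of 15 bases, in capitals here, was present in the promoters of all 7 and is shown for 5 of them to make the likeness of these copies visible.
Zfp980: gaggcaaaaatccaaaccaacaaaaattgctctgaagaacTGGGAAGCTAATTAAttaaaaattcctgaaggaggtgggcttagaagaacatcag
Zfp981: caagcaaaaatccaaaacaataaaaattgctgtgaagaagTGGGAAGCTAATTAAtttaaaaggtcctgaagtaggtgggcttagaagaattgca
Zfp600: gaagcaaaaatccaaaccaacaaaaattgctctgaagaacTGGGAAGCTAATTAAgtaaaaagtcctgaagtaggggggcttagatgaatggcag
Zfp982: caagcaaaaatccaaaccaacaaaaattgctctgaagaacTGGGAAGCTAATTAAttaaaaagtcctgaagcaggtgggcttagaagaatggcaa
Zfp534: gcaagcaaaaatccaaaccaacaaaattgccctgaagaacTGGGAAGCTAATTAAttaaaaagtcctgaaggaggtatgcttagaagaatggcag
On mm10 these are chr4:145670516-145670610, chr4:146514716-146514810, chr4:146156652-146156746 and chr4:147492226-147492320 on the plus strand and chr4:147702683-147702777 on the minus strand. The stretches of Zfp981 and Zfp982 lie within the annotated spans of these genes, so the starts used for them are not the outermost. Rex2 has the same letters as Zfp600 in the stretch shown, and the promoters of that pair were identical over 299 aligned bases. Between other pairs 86.0% to 98.8% of aligned bases were identical. The run was found in 12 of 32851 promoters in the table, all of them on chromosome 4 and 7 of them of genes described here. Of the other 5, Gm13212, Zfp979 and Zfp984 missed the rule through MEF values of 2.81 to 4.40 FPKM, Zfp985 through its D5 share of 10.4%, and Zfp988 was not in the gene table. All 11 genes with the run in the gene table had at least 5 FPKM in mES. For the 7 described here the rule required this, and the run was taken from their promoters, so nothing is read from it. Reads of such near-identical copies can be split between them, so the level of any single copy is uncertain.

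Activation with NanogBiD was spread over D7 to D12. The median mES share over the 81 genes was 0% in both D0 libraries, 1.73% and 2.55% at D5, 12.6% and 12.4% at D7, 43.9% at D8, 73.0% and 58.3% at D10 and 89.4% and 75.9% at D12. At D5 none of the genes reached 1 FPKM in either library, at D7 22 and 26 did, at D8 63, at D10 81 and 79, and at D12 all 81. Read as the first day with an mES share of at least 50%, Dppa3 and Tdh came at D7, 32 genes at D8, 38 at D10 and 9 at D12. The last 9 were LOC101056115, Pnma5, Zfp936, Gm3973, Rnf17, Cyct, Camk2b, Aim2 and Dtx1.

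**Figure D1:**
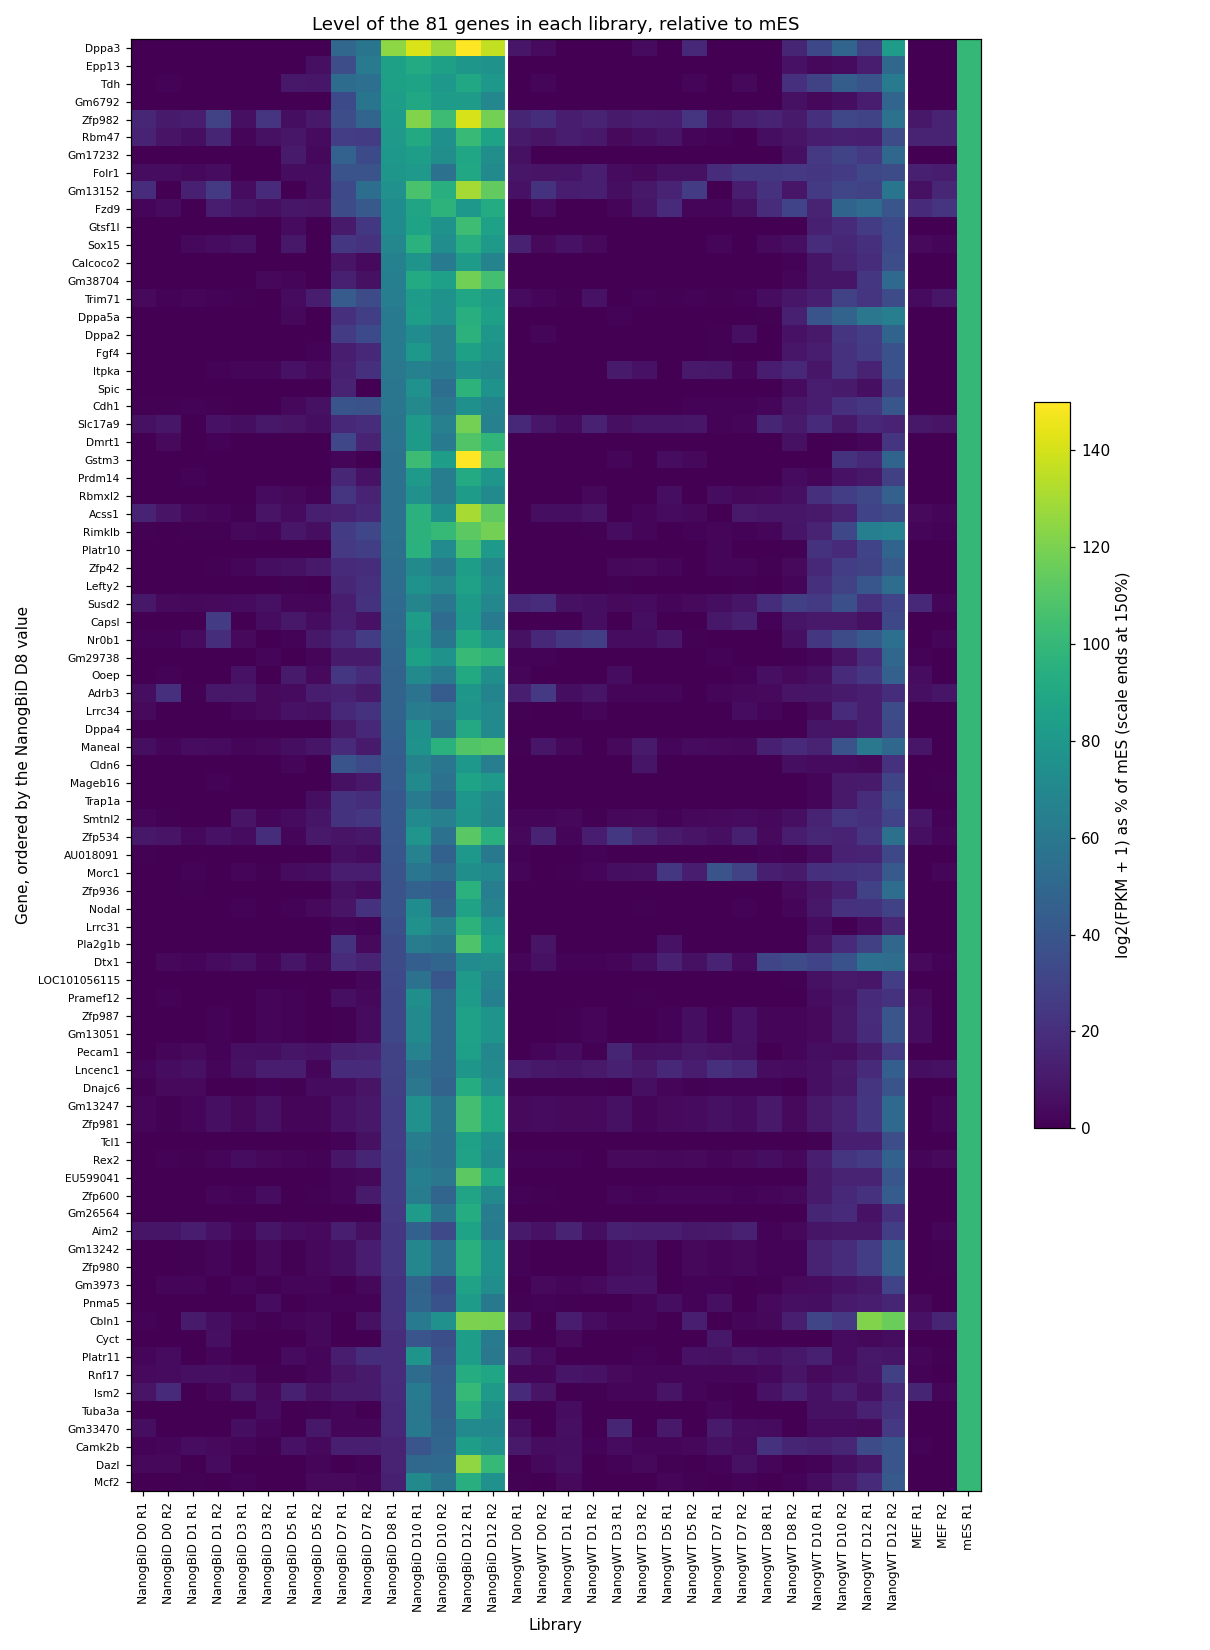
mES share of each of the 81 genes (vertical axis, ordered by the NanogBiD D8 share) in every library of the time course, MEF and mES (horizontal axis, by combination and day), as a percentage of log2(FPKM + 1) in mES on a colour scale that ends at 150%. NanogBiD fills from D8 on, and in NanogWT the colour appears at D10 and D12, more in replicate 2 of each day.

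D8 of NanogBiD was not used by the rule, and it falls about 1 day after the change of medium. With 1 library it allows no test. At D8, 63 of the 81 genes were at least 2-fold above D3, against 12.3% of the 16842 genes tested. The rule took genes low at D5 and high at D12, so a rise by D8 is partly built in and only described. None was as far below D3 (5.75% of all), and none could be, since 0 of the 81 reached 1 FPKM there. The median log2 difference was 1.68 for these genes and 0.13 over all genes. Order at D8 differed widely between genes. The highest shares belonged to Dppa3 (125%), Tdh (85.1%), Epp13 (85.1%), Gm6792 (84.0%, the same gene as Epp13) and Zfp982 (82.1%). The lowest belonged to Mcf2 (13.4%), a guanine nucleotide exchange factor, Dazl (14.3%), Camk2b (14.9%), Gm33470 (16.5%) and Tuba3a (17.5%).

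The median level of the same genes was lower with NanogWT from D7 on. The rule kept genes that were high with NanogBiD at D12, so this order is partly built in and only described. The median share with NanogWT was 1.22% and 1.29% at D7, 1.38% and 4.14% at D8, and 10.3% and 14.4% at D10. At D12 it was 20.4% and 39.4%, a mean of 29.9% ± 13.4 (SD, n = 2). At least 1 FPKM was reached by 2 and 3 of the genes at D7, by 12 and 22 at D10, and by 34 and 62 at D12. An mES share of 50% was reached by only 6 genes, all at D12, namely Dppa3, Maneal, Rimklb, Cbln1, Dppa5a and Dtx1. The other 75 did not reach it.

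**Figure D2:**
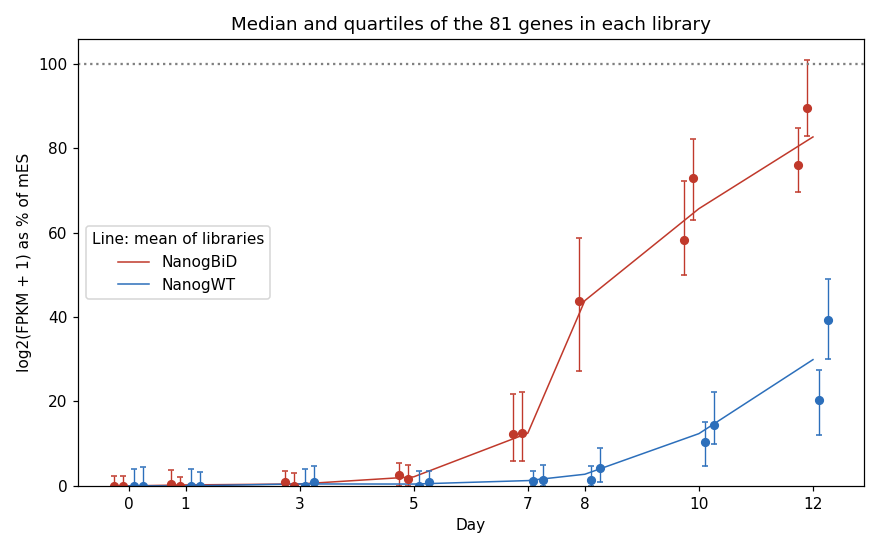
Median mES share over the 81 genes (vertical axis, percent) against day (horizontal axis), with a point and the quartiles over genes for each library and a line through the mean of the libraries, for NanogBiD and NanogWT. NanogBiD passed 43.9% at D8, and the NanogWT libraries of D12 stood at 20.4% and 39.4%.

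None of the NanogWT libraries entered the rule, so the rise with NanogWT was tested. Its start near 0 was partly built in, since the rule required low MEF and high mES values. All 81 also passed the filter for testing through the NanogBiD D12 libraries. A limma model over all 31 libraries gave 50 of the 81 genes as higher at D12 than at D0 (61.7%), against 12.2% of 16842 genes. Called means at least 2-fold with a p under 0.05 after Benjamini-Hochberg adjustment. Of all 493 candidates, the 81 included, 176 of 463 tested were called higher (38.0%). The percentage over all genes is therefore not a like comparison, here or in the NanogWT counts below. None was lower (3.95% of all genes), and none could be. At D0 of NanogWT 0 of the 81 reached 1 FPKM, so a 2-fold fall on the scale used was impossible. The median log2 difference was 1.14 for these genes and 0.19 for all, on the log2(FPKM + 1) scale, which understates changes of low genes. Scaling moved the median of all genes to 0.36 with a common total and to -0.02 with quantile normalization, where the median of the 81 was 1.93 and 0.93. The common total was higher than the deposited sums, which also lowers the weight of the pseudocount. The fit pools the spread of all 16 groups, and most of these genes were near 0 in many of them. The SE and p of late days can therefore understate the spread between late libraries. The call count fell to 29 when the spread came from the NanogWT D0 and D12 libraries alone and to 27 without replicate 2 of D12. At D12 against D7, both in NanogWT, 47 of the genes were higher, against 6.66% of all genes. This count was 27 without replicate 2 of D12. None was lower (4.62% of all genes), but few could be, since only 2 and 3 of the 81 reached 1 FPKM in the D7 libraries.

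In the window from D7 to D10, in which the NanogBiD values ranked the genes, 10 of the 81 rose with NanogWT (12.3%, against 5.69% of all genes). None fell (4.59% of all), but few could, since only 2 and 3 of the 81 reached 1 FPKM in the D7 libraries. The log2 differences of the 10, given in the order of size, were 4.89 for Dppa5a, 2.65 for Tdh, 1.86 for Dppa3, 1.76 for Lefty2, 1.64 for Gm17232, 1.64 for Nr0b1, 1.40 for Rbmxl2, 1.39 for Zfp42, 1.12 for Cdh1 and 1.12 for Fgf4. Without replicate 1 of D10 the count was 16, and 47 genes were called with a pseudocount of 0.1 and 31 after scaling to a common total. From D7 to D8 the mean of NanogWT was at least 2-fold higher for none of the genes (4.78% of all genes) and lower for 1 (3.26%). The fibroblast markers moved upward in the same window. Of 25, 17 were higher at D10 than at D7 and none was lower, beside 5.69% and 4.59% of all genes. Their median log2 difference was 1.27, and their part in these results was not tested.

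Of the list of 26 naive transcription factors, 3 were in the set. Zfp42 (Rex1, a zinc finger protein of naive cells, chr8:43295067-43307009) was at 1.45 and 1.59 FPKM at D7 of NanogBiD, 12.8 at D8, 30.2 and 19.3 at D10 and 57.0 and 28.2 at D12, with 127 FPKM in mES. The NanogWT libraries had 0.0973 and 0.135 FPKM at D7 and 1.29 and 2.77 at D10, and those of D12 had 3.09 and 6.56. The libraries of both combinations did not overlap from D7 on. At D12 against D0 with NanogWT the log2 difference was 2.47 (SE 0.29, adjusted p = 1.23e-06, limma with Benjamini-Hochberg adjustment).

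Nr0b1 (Dax1, an orphan nuclear receptor that binds Oct4, chrX:86191775-86195947) was listed at 0 in both NanogWT libraries of D7 and stood at 4.23 and 7.42 FPKM at D12, a log2 difference of 2.07 from D0 (SE 0.36, limma adjusted p = 0.00013). With NanogBiD it went from 0.936 and 1.81 FPKM at D7 to 33.9 and 20.1 at D12, against 48.1 in mES. Prdm14, which represses Fgf signalling and DNA methyltransferases in naive and germ cells (chr1:13113428-13127163), reached 15.5 and 10.1 FPKM at D12 of NanogBiD and 0.337 and 1.40 with NanogWT. Its NanogWT difference of 0.84 missed the 2-fold limit. Of the whole list, 16 were higher and 1 lower in NanogWT at D12 than at D0, beside 12.2% and 3.95% of all genes. The median log2 difference was 1.29 over the list against 0.19 over all genes. Of the 16, 14 were outside the set described here, Esrrb, Sox2, Sall4 and Tfcp2l1 among them.

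The largest group was that of the Dppa genes and other stem cell effectors, with 11 members of a list of 38. Their median mES share was 62.3% at D8 and 83.0% at D12 of NanogBiD and 32.1% at D12 of NanogWT. In NanogWT 10 of the 11 rose between D0 and D12, all but Pecam1. Over the list 25 rose and 1 fell of 36 tested, beside 12.2% and 3.95% of all genes. The median log2 difference over the list was 1.34. Without replicate 2 of D12, 4 of the 10 were under the 2-fold limit, namely Dppa4 (0.70), Tcl1 (0.70), Trim71 (0.97) and Morc1 (0.99). The genes of this group differed most in their level in mES.

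Dppa5a (Esg1, a KH-domain protein that binds RNA, chr9:78367052-78368199) had the highest mES level, 2396 FPKM. With NanogBiD it was at 4.11 and 7.87 FPKM at D7, 128 at D8, 706 and 361 at D10 and 1536 and 729 at D12. With NanogWT it was listed at 0 in both D7 libraries and reached 20.03 and 40.7 FPKM at D10 and 102 and 146 at D12. It had the largest NanogWT rise of the set, 6.95 on the log2 scale from D0 to D12 (SE 0.41, limma adjusted p = 1.37e-10), and yet both NanogWT libraries lay below both NanogBiD libraries of D12. Its neighbour Ooep, an oocyte protein of the KH family, was at 31.04 and 15.96 FPKM with NanogBiD and 1.46 and 4.72 with NanogWT at D12.

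Dppa3 (Stella, which protects DNA methylation patterns in the oocyte and early embryo, chr6:122626424-122630271) was the only gene above its mES level already at D8. It was at 3.84 and 5.34 FPKM at D7 of NanogBiD, 51.3 at D8, 88.3 and 56.4 at D10 and 131 and 73.9 at D12, with 22.9 in mES. The NanogWT libraries of D12 were far apart at 1.57 and 12.9 FPKM. The rise of 2.27 from D0 had an SE of 0.49 (limma adjusted p = 0.00109), which rests on the spread pooled over all 16 groups. That SE does not measure the spread of the D12 pair alone. Without replicate 2 of D12 the difference was 1.05 and without replicate 1 it was 3.49.

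Tdh, the threonine dehydrogenase on which the growth of mouse stem cells depends (chr14:63492347-63509092), was among the earliest. It stood at 15 and 16.6 FPKM at D7, 85.8 at D8, 96.0 and 64.4 at D10 and 108 and 66.3 at D12 of NanogBiD, and at 189 in mES. With NanogWT it reached 3.56 and 9.22 FPKM at D10 and 6.58 and 23.8 at D12, 3.71 above D0 on the log2 scale (SE 0.46, limma adjusted p = 2.38e-06). The lncRNA gene Gm17232 lies within the span of Tdh (chr14:63493656-63502900) and followed it, with 25.5 FPKM at D8 of NanogBiD. Whether the counting used strand is not given in the sources used here, so reads of the overlapping pair cannot be told apart.

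Dppa2 and Dppa4, partners that keep promoters of developmental genes free of DNA methylation, sit side by side on chromosome 16 (chr16:48310274-48319513 and chr16:48283735-48294292), and Morc1, which silences transposons in germ cells, follows at chr16:48431237-48630905. Dppa2 was at 7.45 FPKM at D8 and 26.3 and 14.2 at D12 of NanogBiD, and at 1.54 and 4.27 at D12 of NanogWT, a log2 rise of 1.83 from D0. Dppa4 was at 4.89 FPKM at D8, 29.6 and 13.9 at D12, and 0.620 and 2.34 with NanogWT, a rise of 1.22 that was 0.70 and no longer called without replicate 2 of D12. Morc1 took another path with NanogWT, where it was at 2.40 and 1.61 FPKM at D7, above its 0.460 and 0.484 with NanogBiD, and at 0.897 and 1.01 at D10. Calcoco2, an autophagy receptor, was at 0.429 and 0.183 FPKM at D7 and 18.4 at D8 of NanogBiD. Trim71, an RNA-binding target of let-7, was at 8.04 FPKM at D8, Tcl1, a coactivator of Akt, at 1.84, and Pecam1, an adhesion molecule of stem cells and endothelium, at 2.18.

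The signalling members were ligands and an inhibitor. Fgf4, the ligand that stem cells themselves make and that primes them for differentiation (chr7:144861386-144865245), was at 0.777 and 1.28 FPKM at D7 of NanogBiD, 18.3 at D8, 47.0 and 22.7 at D10 and 61.6 and 40.8 at D12, with 126 in mES. Lefty2, a secreted inhibitor of Nodal (chr1:180893108-180899107), was at 13.6 FPKM at D8 and 74.0 and 41.8 at D12. Nodal itself, a ligand of the Tgf-beta family (chr10:61417972-61425338), was lower, at 2.54 FPKM at D8 and 16.5 and 8.31 at D12. Lefty2 stood above Nodal in NanogWT as well. Lefty2 reached 6.44 and 13.8 FPKM at D12 of NanogWT, a log2 rise of 3.39 (SE 0.27, limma adjusted p = 8.67e-09), and Nodal 1.06 and 1.60 FPKM, a rise of 1.21. Fgf4 rose by 2.26 to 2.67 and 5.26 FPKM. Over the 19 tested genes of the Nodal and Fgf4 list, 9 rose and 3 fell in NanogWT between D0 and D12, with a median of 0.35. Over all genes 12.2% rose and 3.95% fell.

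Epithelial junction genes gave 2 members. Cdh1 (E-cadherin, chr8:106603350-106670247) was at 6.78 and 6.06 FPKM at D7 of NanogBiD, 20.4 at D8, 38.7 and 20.7 at D10 and 49.8 and 33.3 at D12, well below its 185 FPKM in mES. Its share of 71.4% at D12 shows how the log scale compresses such a gap. With NanogWT it was at 2.46 and 7.15 FPKM at D12, a log2 rise of 2.41. Cldn6, a claudin of embryonic epithelia, was at 7.60 and 4.65 FPKM at D12 of NanogBiD and 0.0892 and 0.772 with NanogWT, where the difference of 0.47 from D0 was not called (limma adjusted p = 0.0639). Of 34 tested epithelial genes, 8 rose and 1 fell with NanogWT, with a median of 0.48, beside the 12.2% of all genes that rose.

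The germline members were spread widely at D8. All 5, Gtsf1l, Mageb16, Tuba3a, Dazl and Morc1, had a median share of 39.2% at D8 and 84.6% at D12 of NanogBiD and 24.1% at D12 of NanogWT. Dazl, a translational regulator of germ cells (chr17:50279393-50293620), was at 0.392 FPKM at D8, 2.16 and 2.25 at D10 and 17.0 and 9.22 at D12, with 9.08 in mES. Tuba3a, a tubulin of the testis, was at 0.802 FPKM at D8, 6.56 and 3.64 at D10 and 23.0 and 11.4 at D12. Gtsf1l, a relative of a piRNA pathway protein, was at 7.70 FPKM at D8 against 18.6 in mES. Mageb16, a MAGE family gene, was at 3.30 FPKM at D8 against 27.5 in mES. The D8 shares were thus 72.7% for Gtsf1l, 43.5% for Mageb16, 39.2% for Morc1, 17.5% for Tuba3a and 14.3% for Dazl. With NanogWT, Gtsf1l, Mageb16 and Morc1 were called between D0 and D12, and Dazl (0.75) and Tuba3a (0.87) missed the 2-fold limit. Without replicate 2 of D12, Mageb16 (0.54) and Morc1 (0.99) missed it too. Of 35 tested germline genes, 9 rose and none fell, with a median of 0.42, beside the 12.2% of all genes that rose. Pramef12, a leucine-rich PRAME family gene and the only member from the list of early-embryo and oocyte genes, was at 21.96 and 10.6 FPKM at D12 of NanogBiD. With NanogWT it was at 0.960 and 1.32 FPKM. It was the 1 gene called of 14 tested from that list, beside 12.2% of all genes called higher. Its difference of 1.09 was 0.97 without replicate 2 of D12.

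The list of stem cell lncRNAs gave 4 entries, of which Lncenc1, Platr10 and Platr11 are noncoding in RefSeq and Gm13051 is the same locus as the zinc finger gene Zfp987. At D8 of NanogBiD the shares of the 3 were 29.6%, 55.6% and 19.3%. Lncenc1, an lncRNA of naive stem cells (chr13:97434970-97497664), was at 1.22 and 1.25 FPKM at D7, 2.72 at D8, 10.8 and 7.85 at D10 and 32.7 and 22.8 at D12 of NanogBiD, against 83.0 in mES. In NanogWT it was at 1.53 and 1.12 FPKM at D7, lower at D10 (0.311 and 0.577), and at 1.22 and 6.37 at D12. Platr10 was at 4.81 FPKM at D8 and 27.9 and 11.9 at D12 of NanogBiD, and with NanogWT it rose by 1.79 on the log2 scale between D0 and D12. Platr11 was at 0.428 FPKM at D8 and 3.75 and 2.02 at D12 of NanogBiD, and its NanogWT difference was 0.04. Of 23 tested entries of the list, 4 rose with NanogWT and none fell, beside 12.2% of all genes that rose, and the median over the list was 0.22 against 0.19 over all genes. Lncenc1, with a difference of 1.34, was at 0.47 without replicate 2 of D12.

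Among the 53 genes outside the lists were metabolic enzymes, germ cell proteins and genes better known from neurons. Gstm3, a glutathione transferase, had the largest gain in share from D7 to D10 (92.1 percentage points), followed by Dppa3 (80.6), Gm38704 (78.1), Maneal (72.0), Gm29738 (70.1), Acss1 (69.9) and Gm26564 (69.9). Gstm3 was listed at 0.0467 and 0 FPKM at D7 of NanogBiD, 1.91 at D8, 5.94 and 3.89 at D10 and 16.3 and 6.98 at D12, above its 5.61 FPKM in mES. Acss1, the mitochondrial acetyl-CoA synthetase, was at 10.3 and 7.08 FPKM at D12 against 5.40 in mES. The gains of Zfp982 (69.6), Rimklb (69.3), Lrrc31 (68.4) and Cbln1 (65.4) came next. Mcf2, Sox15, Calcoco2 and Gtsf1l completed the first 15. Sox15, a Sox factor close to Sox2 in its DNA binding, was at 6.33 FPKM at D8. Rbmxl2, a testis RNA-binding protein, was at 14.0 FPKM at D8 and 52.0 and 30.5 at D12, with 124 in mES, and Trap1a, a tumour rejection antigen expressed in trophoblast, at 6.11, 40.5 and 25.4, with 111 in mES. NanogWT raised Rbmxl2 by 2.71 and Trap1a by 1.88 on the log2 scale between D0 and D12.

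Cbln1 was the exception to the order of the combinations. It encodes a secreted organizer of cerebellar synapses (chr8:87468853-87472592) and was at 12.2 and 10.9 FPKM at D12 of NanogWT and at 11.8 and 11.7 with NanogBiD, above its 7.34 FPKM in mES in all 4 libraries. In NanogWT it stood at 0.943 and 0.704 FPKM at D10, and the rise from D0 to D12 was 3.51 (SE 0.16, limma adjusted p = 6.21e-12). It was the smallest adjusted p of the set. Neural progenitor markers rose with it. Their sum over 10 genes was 70.1 to 147 FPKM at D10 and 318 to 384 FPKM at D12 of NanogWT. It was 469 to 667 FPKM at D12 of NanogBiD and 40.9 FPKM in mES. Of these markers, 7 of 9 tested were higher at D12 of NanogWT than at D0, beside 12.2% of all genes. Their part in the level of Cbln1 was not tested. Camk2b, a calcium-dependent kinase of neurons, was at 1.37 and 1.74 FPKM at D12 of NanogWT and 7.17 and 5.71 with NanogBiD.

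The zinc finger cluster on chromosome 4 ranged widely at D8. Its 7 genes had a median share of 2.08% at D5, 8.55% at D7, 27.2% at D8 (range 24.0% to 82.1%), 61.9% at D10 and 85.9% at D12 of NanogBiD (79.7% to 130%). In NanogWT the median was 4.40% at D7, 15.3% at D10 and 37.4% at D12 (29.2% to 43.3%). The median of the other genes was 47.5% at D8 and 27.4% at D12 of NanogWT, and neither difference was tested. Zfp982 set the upper end, with 4.75 FPKM at D8, 12.3 and 7.89 at D10 and 19.07 and 11.5 at D12 against 7.42 in mES. Rex2, the highest of the cluster in mES with 40.8 FPKM, was at 1.71 at D8, 8.65 and 7.23 at D10 and 24.1 and 14.2 at D12 of NanogBiD. It reached 1.71 and 4.71 FPKM at D12 of NanogWT, a log2 rise of 1.90 (SE 0.25, limma adjusted p = 6.83e-06). The split of reads between the near-identical copies was not tested.

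**Figure D3:**
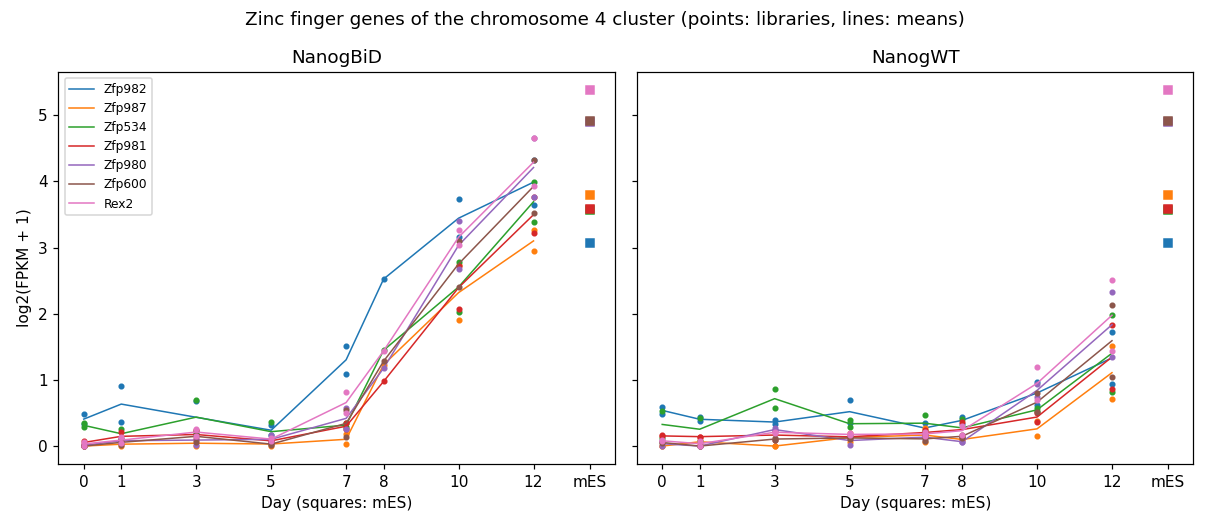
Level of the 7 zinc finger genes of the chromosome 4 cluster, as log2(FPKM + 1) (vertical axis), against day (horizontal axis) for NanogBiD and NanogWT, with points for libraries, lines through their means and squares for mES. At D12 of NanogBiD the genes had mES shares of 79.7% to 130%, and with NanogWT of 29.2% to 43.3%.

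Before D5 the genes were too low in both combinations for a test to bear on them. None of the 81 reached 1 FPKM in any library of D0 or D3, and at D1 only Nr0b1 did so with NanogWT (1.54 and 1.92 FPKM) and Nr0b1 and Gm13152 in 1 NanogBiD library (1.15 and 1.00 FPKM). The rule itself had chosen the genes to be low in MEF and at D5. Since 2 values under 1 FPKM cannot differ by the 2-fold on the log2(FPKM + 1) scale that a call needs, no gene could be called at D0 or D3, and at D1 none but Nr0b1 and Gm13152. The limma counts were accordingly 0 between NanogBiD and NanogWT at D0, D1 and D3 and 0 from D0 to D3 within NanogBiD, and they say nothing about a difference. At an unadjusted p under 0.05 there was 1 gene at D0, 1 at D1 and none at D3 between the combinations, and none from D0 to D3. For reference only, calls over all 16842 genes came to 0.422% higher and 0.338% lower at D0, 0.368% and 0.962% at D1, 1.25% and 2.45% at D3, and 8.95% and 6.06% from D0 to D3 within NanogBiD. With a pseudocount of 0.1, which lifts that bound, 2 of the 81 genes were called from D0 to D3 and 1 between the combinations at D3. The fibroblast markers summed to 8399 to 8866 FPKM at D0 and 5353 to 5533 FPKM at D3 of NanogBiD.

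From D7 on the NanogBiD values belong to the rule, and the comparison is a description. NanogBiD was at least 2-fold above NanogWT for 21 of the 81 genes at D7 (6.18% of all genes), 61 at D8 (13.7%), 78 at D10 (15.7%) and 79 at D12 (13.9%), and nothing is read from these counts. In the other direction, Morc1 was at least 2-fold lower at D7 (4.94% of all genes), and none was so at D8 (10.1%), D10 (12.7%) or D12 (10.2%). At D12 the NanogBiD libraries were both above both NanogWT libraries for 80 of the 81 genes, against 45.9% of all genes, and Cbln1 overlapped. Relative to mES, both NanogBiD libraries of D12 were above for 10 genes, both below for 59 and on either side for 12. Shares over 120% were those of Dppa3 (145%), Gstm3 (130%), Zfp982 (130%), Gm13152 (122%), Acss1 (121%) and Cbln1 (120%).

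**Figure D4:**
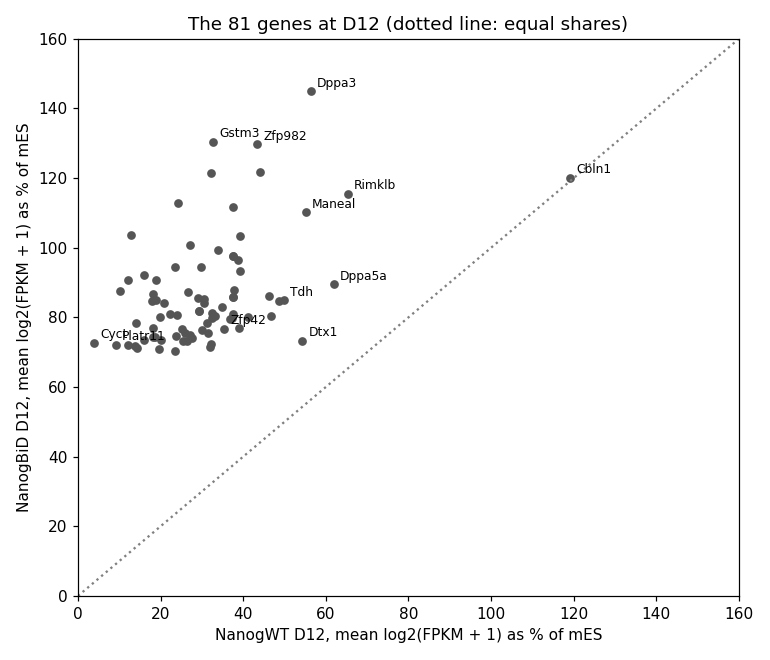
mES share at D12 of each of the 81 genes with NanogWT (horizontal axis, percent) and NanogBiD (vertical axis, percent), as means of 2 libraries, with the line of equal shares. Cbln1, at 119% with NanogWT and 120% with NanogBiD, lies at the line, and the other genes lie above it.

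Replicates of a late day differed in the same direction for nearly all of the genes. At D10 of NanogBiD replicate 1 was higher for 74 of the 81 (51% of all tested genes) and at D12 for 77 (51.4%), with a median log2 difference of 0.62 at D12 against 0.01 over all genes. With NanogWT replicate 2 was higher for 70 at D10 (49.8%) and 75 at D12 (50.6%), with a median difference of replicate 1 from 2 of -0.78 at D12, where it was near 0 over all genes. Nearly all of the genes thus differed together between libraries of the same day. Relative depth in NanogWT was 1.85 in replicate 1 and 3.08 in replicate 2 at D10, and 3.18 and 2.05 at D12, and its part in these differences was not tested.

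The 81 genes were set beside candidates that the rule did not keep, mainly in NanogWT, whose values the rule did not use. Of the 195 candidates that were already at 10% or more at D5 and reached 70% at D12, 107 were called higher at D12 than at D0 in NanogWT (54.9%), against 61.7% of the set described here. Of the 119 candidates that were below 10% at D5 and below 70% at D12, 4 of 91 tested were called (4.40%). The median NanogWT share at D12 was 30.1% in the set, 43.1% in the early candidates and 9.50% in those not reached, and at D7 it was 1.27%, 28.3% and 1.41%. At D8 of NanogBiD the medians were 43.9%, 71.8% and 19.9%. These differences between sets were not tested.

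In iPSC most of the genes were within 2-fold of mES. Transcript values summed per gene gave 76 of the 81, and the mean of the 12 iPSC was within 2-fold of mES for 61 of them (80.3%), against 91.6% of 12456 tested genes, while 9 were lower and 6 higher. The share was 71.4% among the early candidates and 63.1% among those not reached. In every one of the 12 samples 70 genes had at least 1 FPKM. The median mES share of the genes, per sample, lay between 93.0% and 105%. The lowest was replicate 9 of NanogBiD iPSC1, which also had 3115 FPKM of fibroblast markers, against 264 to 1189 FPKM in the other 11.

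Some genes that stood above mES at D12 of NanogBiD were below it in iPSC. Dppa3 was at 2.74 to 13.8 FPKM (median 6.90) against 21.7 in mES, below it in 12 of 12 samples. Cbln1 was at 0.254 to 1.98 FPKM (median 0.531) against 5.78, and Gstm3 at 0.591 to 4.60 (median 1.79) against 6.04, both below in 12 of 12. The lowest relative to mES, as log2 differences of the mean of the 12, were Cbln1 (-1.97), Cyct (-1.77), a cytochrome c of the testis, Dppa3 (-1.65), Gstm3 (-1.31) and Dmrt1 (-1.22), a testis transcription factor. The highest were Zfp936 (1.95), Gm38704 (1.47), Nr0b1 (1.38), Gm6792 (1.38) and Gm17232 (1.15). Nr0b1 was at 63.5 to 151 FPKM (median 96.0) against 36.8 in mES. Dppa5a was at 1176 to 3702 FPKM against 2099 and did not lie on 1 side. The value of the same mES sample differed more than 2-fold between the gene and the transcript table for 8 genes, Gm17232 among them with 59.0 and 0.424 FPKM, so the iPSC values of those 8 are uncertain. The cause of the difference was not tested.

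**Figure D5:**
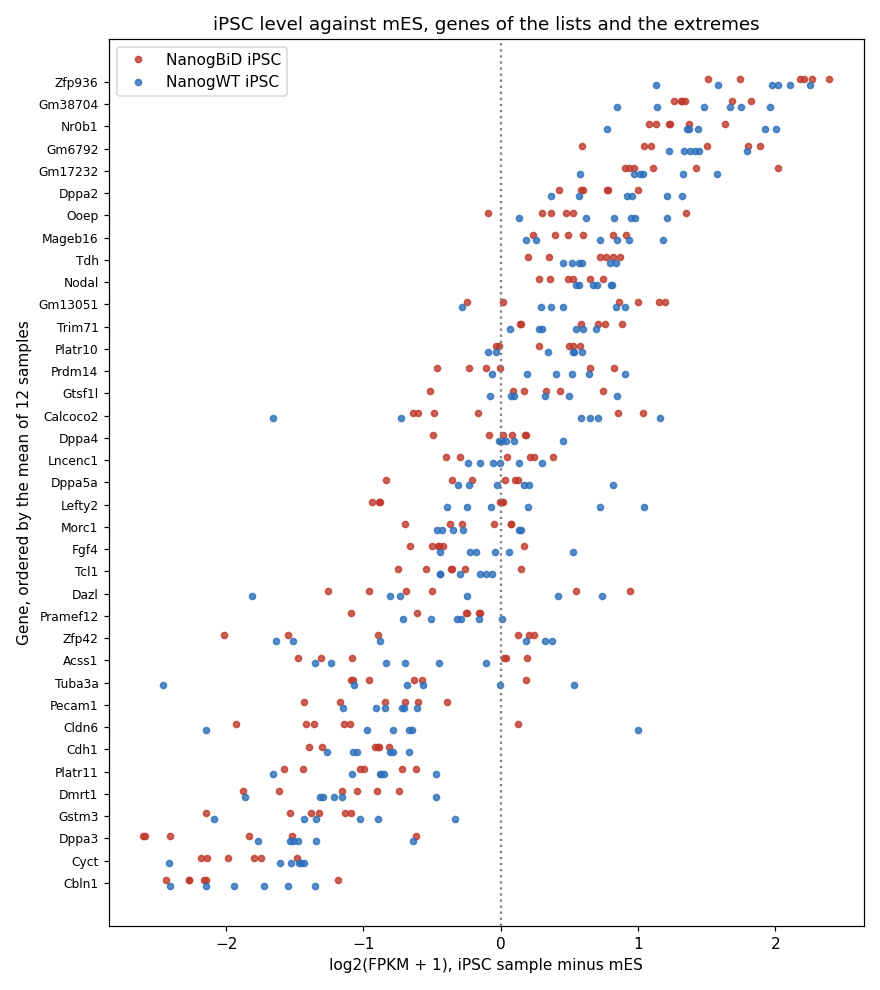
Log2(FPKM + 1) of each iPSC sample minus that of mES (horizontal axis) for the listed genes and the extremes of the set (vertical axis), with 1 point per sample, coloured by combination. Nr0b1 and Zfp936 lie to the right of 0 in all 12 samples, and Dppa3, Cbln1 and Gstm3 to the left in all 12.

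Between iPSC made with NanogBiD and with NanogWT none of 75 tested genes was called, as was none of 12456 genes (0% higher and 0% lower), with line in the limma model. The smallest adjusted p over the 75 was 0.999, and 2 genes had an unadjusted p under 0.05, Lefty2 with a log2 difference of -0.77 (SE 0.22) and Dtx1, a regulator of Notch, with -0.38 (SE 0.17), both lower with NanogBiD. The median difference over the genes was -0.09, against 0.01 over all. Lefty2 was at 64.0, 66.3 and 66.7 FPKM in NanogBiD iPSC1, 123, 124 and 125 in NanogBiD iPSC2, 94.2 to 256 in NanogWT iPSC1 and 205 and 142 in NanogWT iPSC2. These ranges overlap between the combinations.

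Between the lines, 2 of the 75 genes were lower in iPSC1 than in iPSC2 (0.377% of all genes) and none was higher (0.506%). Acss1 was at 1.92, 1.49 and 1.22 FPKM in NanogBiD iPSC1, 2.47, 1.63, 2.82 and 1.42 in NanogWT iPSC1, 6.06, 5.31 and 5.37 in NanogBiD iPSC2 and 3.53 and 4.75 in NanogWT iPSC2, so the lines did not overlap. The log2 difference was -1.08 (SE 0.17, limma adjusted p = 0.00438). Zfp42 was at 76.3, 48.1 and 34.6 FPKM in NanogBiD iPSC1, 49.5, 45.4, 185 and 77.2 in NanogWT iPSC1, 165, 169 and 156 in NanogBiD iPSC2 and 162 and 179 in NanogWT iPSC2. A single NanogWT iPSC1 sample thus stood with iPSC2. The log2 difference was -1.44 (SE 0.31, limma adjusted p = 0.0258). This call was lost when any 1 of several samples was left out, namely NanogBiD iPSC1 replicate 8 or 9, NanogBiD iPSC2 replicate 1, 2 or 3, or NanogWT iPSC2 replicate 6, with adjusted p up to 0.0695, and was also lost with no filter on low values (limma adjusted p = 0.133). A test of whether the combination effect differed between lines called none of the 75, with a smallest adjusted p of 0.951.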

How the data were processed

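RNA-seq libraries of MEF, 31 time-course samples, 12 iPSC and 1 mES sample were used. Per the submitters' processing notes and the study's methods, the authors trimmed reads with Trim Galore 0.6.4, aligned them to mm10 with HISAT2 2.2.1 and quantified them with StringTie 2.2.1. What the authors deposited is FPKM, in a table of 37108 genes by 34 libraries and a table of 106520 transcripts by 15 libraries, with replicates kept apart. The annotation and any use of strand are not given in the sources used here, and the labels and the methods name different library kits. Depth is unknown except for the ratios between time-course libraries, which were read from the step that 1 read makes in low values, and intervals and detection floors are left out.

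Groups came from the sample labels. The genes and lists were chosen with earlier results of these data known, and no p-value was adjusted over them alone. Values were analysed as log2(FPKM + 1). The filter for testing was 1 FPKM or more in 2 or more samples (16842 in the time course, 12456 in iPSC after summing transcripts per gene, all 81 and 75 of the set). limma 3.58.1 in R 4.3.3, with an intensity trend, was fitted over all 31 time-course libraries with 16 groups of combination and day, and over the 12 iPSC with combination and line. Tests were two-sided. Calls needed a log2 difference of at least 1 and a p under 0.05 after Benjamini-Hochberg adjustment over all tested genes. In simulated tables in which 200 genes had a log2 change of 2, the NanogWT D12 against D0 contrast over 16842 genes recovered 195 (97.5%) with 3 false calls, and the iPSC contrast over 12456 genes recovered 195 with 2 false calls. The change was added to genes drawn at random, around their mean level and without other group differences. The 81 were near 0 at D0 and had a median difference of 1.14, so their recovery is not shown. Smaller changes in iPSC were not simulated.

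Genes named are the members of a list, the 15 largest gains from D7 to D10, the 10 highest in mES, the 5 highest and lowest at D8 of NanogBiD, the 5 largest called differences in each contrast and direction, the 5 highest and lowest in iPSC relative to mES, and those next to a limit of the rule. Others, such as the genes that reached 50% last, those of the chromosome 4 cluster and those with the octamer core, were chosen after their values were seen. Gene positions and promoters are from RefSeq on GRCm38, with 74 entries matched by symbol and 6 by synonym. Alternatives were another pseudocount, no filter, a common total, quantile normalization, no fold limit, a replicate block and the compared groups alone. Further ones were other limits of the rule, each replicate left out, and the average of the NanogWT iPSC1 samples 1# and 1#-2, whose labels share a number. An alternative chosen after seeing the data was 1 entry per RefSeq gene. Python 3.11.15, pandas 2.3.3 and matplotlib 3.10.9 were used for the rest.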

Additional observations from a re-analysis of the deposited data

Results flagged for a closer look

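In the iPSC, 26 groups of 6 values were tested for a sample far from the others by Dixon's 95% criterion, and 5 were found. The groups were the median share and the genes named for an iPSC result, in the 6 samples of each combination. Those genes were chosen on iPSC values, and each group joins iPSC1 and iPSC2. The rate of about 1 in 20 groups that chance alone gives therefore need not hold here. In NanogBiD iPSC, Cbln1 was at 1.98 FPKM in iPSC1 replicate 8 with the nearest other sample at 0.528, and Gm17232 at 4.77 FPKM in iPSC2 replicate 1 with the nearest at 2.81. In NanogWT iPSC, Dppa3 was at 13.6 FPKM and Cyct at 0.961 FPKM in iPSC2 replicate 5, with the nearest samples at 7.96 and 2.44, and Gm6792 was at 22.4 FPKM in iPSC1 replicate 2 with the nearest at 17.3.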

How the results depend on the processing

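No result reversed under any alternative run. The 50 genes called in NanogWT at D12 against D0 became 29 with the compared groups alone, and 27 to 61 with 1 replicate left out. At D10 against D7 the 10 became 47 with a pseudocount of 0.1, 31 with a common total, 23 with no fold limit and 7 to 16 with 1 replicate left out. At D12 against D7 the 47 became 72 with a pseudocount of 0.1 and 27 to 59 with 1 left out. With a pseudocount of 0.1, 2 genes were called for NanogBiD D3 against D0 and 1 between the combinations at D3, where levels under 1 FPKM allowed none with a pseudocount of 1. The 2 line calls became 1 with no filter, 6 with no fold limit and 1 to 4 with 1 sample left out. The median share of 43.9% at D8 of NanogBiD became 64.1% with a pseudocount of 0.1, and that of 29.9% at D12 of NanogWT 50.6%, with 20.4% to 39.4% for single libraries. The rule itself kept 152 genes with a common total (58 of the 81), 129 with a D5 limit of 20%, 57 from replicate 2 alone (54 of the 81) and 114 from replicate 1 alone (77 of the 81), and 75 with a pseudocount of 0.1 (45 of the 81). The common total was higher than the sums of the time-course libraries (370030 to 462190 FPKM), while the FPKM limits and the pseudocount stayed the same. That alternative thus also lowered the weight of both. Its part in the counts, and the cause of the other changes, was not tested.

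With a replicate block the counts were 50, 10 and 47 for the NanogWT contrasts and 0 for the others, and no call count moved. Replicate numbers gave deviations that correlated at -0.06 to 0.42 over 2 pairs per contrast, so they are not shown to pair the samples. For the genes named, 827 values under an alternative kept direction and call and 78 lost the call, among them values without replicate 2 of NanogWT D12. The duplicate entries changed little, since 46 genes were called at D12 against D0 with 1 entry per RefSeq gene. Depth is known only as ratios, and values under 1 FPKM rest on few reads.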
